A study of Mus musculus with 22 samples.

Results

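The 6 control ventricle samples of the study have neither Lin9 nor Sav1 knocked out, and they come as 2 sets of 3, from experiments counted in separate tables at different depths. They are picked out by their labels: the 3 samples with wild-type Lin9 in experiment 1 and the 3 with wild-type Lin9 and wild-type Sav1 in experiment 2. They are 6 of the 18 RNA samples and of the 22 samples of the series. The study asked how the Hippo pathway and the MuvB complex act together in heart muscle cell division, and deleted Sav1, Lin9 or both genes in the mouse heart. RNA came from heart ventricles of E13.5 embryos, and polyadenylated RNA was sequenced. All embryos carried Nkx2.5-Cre, a recombinase gene driven by Nkx2-5 in cardiac precursor cells, and the mice were on a C57/Bl6 background. The labels call Lin9 wild-type in the controls, while the paper gives their Lin9 genotype as Lin9 fl/+, so that a single Lin9 allele can recombine in cells with Cre. The LIN9 KO ventricles used for comparison, 3 in each experiment, had Lin9 deleted on both alleles by the same Cre and had wild-type Sav1.

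The values are whole read counts per gene. Total counts were 9522834, 9485599 and 9518260 in replicates 1, 2 and 3 of experiment 1, and 2940111, 2930616 and 2912330 in replicates 1, 2 and 3 of experiment 2. Values for the 6 samples are given in this order throughout. The paper calls the experiments biological replicates that were each done in triplicate. Neither it nor the labels say that the replicates of a set are separate embryos, so the p-values below measure the spread between samples. For comparisons between samples, counts were scaled to CPM (counts per 1e6 counts of the sample) with TMM factors. For comparisons between genes, counts were divided by the exon length of the gene and scaled to the same sum in every sample, which is called the length-scaled level here.

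At E13.5 the mouse ventricle is an inner mesh of trabecular muscle and an outer, dividing compact layer, lined inside by endocardium and covered outside by epicardium. Fibroblasts, mural cells and cushion mesenchyme arise from epicardium and endocardium, and coronary vessels are spreading through the wall. The chambers hold blood whose red cells come partly from the yolk sac, with embryonic globins, and partly from the fetal liver, with adult globins.

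Whether a gene can be read from these tables depended on where it lies. Of 1201 protein-coding genes whose whole span lies under other annotated genes, 1166 (97.1%) had 0 counts in all 18 RNA samples, against 2567 of 12301 (20.9%) genes with no other gene on their span. Of the 701 that lie wholly under genes of the opposite strand only, 677 (96.6%) were at 0. Tnnc1, which encodes cardiac troponin C, and Actc1, which encodes cardiac alpha-actin, are such genes and were at 0 counts in all 6 controls. So were the skeletal alpha-actin gene Acta1, the transcription factor gene Srf and the calcium pump regulator gene Pln. A value of 0 for a covered gene is therefore no sign of a missing transcript, and values of partly covered genes are lower bounds.

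In all, 319 genes stood on the 23 cell type lists and 14 functional lists used here, and 21 of them were at 0 in all 6 controls. Of these, 14 lie wholly under other genes: Tnnc1, Actc1, Esm1, Scx, Alas2, Sox2, Srf, Prc1, Cdt1, Gins2, Pln, Adm, Kcnq1ot1 and Xist. The other 7 included Cd3e of lymphocytes, Fgb of hepatocytes, Nkx2-1, Sftpc and Foxa2 of lung and gut, and Myf5 of skeletal muscle. For these 7, except Nkx2-1, which is partly covered, a count of 0 allows up to 0.315, 0.316 and 0.315 CPM in experiment 1 and up to 1.02, 1.02 and 1.03 CPM in experiment 2, the value of 3 counts, by counting error alone.

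The targeted genes were read first. Lin9 (ENSMUSG00000058729, mm10 chr1:180641150-180690694), a core subunit of MuvB, had length-scaled levels of 10.8, 7.64 and 8.62 in experiment 1 and 10.7, 10.4 and 8.49 in experiment 2. Sav1 (ENSMUSG00000021067, mm10 chr12:69965012-69987002), the scaffold of the Hippo kinases, lay at 27.1, 25.3 and 25.6 and at 27.5, 28.5 and 31.2 on that scale. Nkx2-5 (ENSMUSG00000015579, mm10 chr17:26838664-26845009), the cardiac homeobox gene whose locus drives the Cre, lay at 234, 227 and 228 and at 267, 204 and 218. The sets overlapped for Lin9 and Nkx2-5, and for Sav1 every sample of experiment 2 lay slightly higher on this scale, while its sets overlapped in CPM. The log2 differences of experiment 2 minus experiment 1 were 0.08 for Lin9 (SE 0.15, edgeR quasi-likelihood test, Benjamini-Hochberg adjusted p 0.888), 0.11 for Sav1 (SE 0.10, edgeR adjusted p 0.726) and -0.05 for Nkx2-5 (SE 0.10, edgeR adjusted p 0.896), with 3 samples a set.

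Libraries that stood apart are described before the remaining results, because many results rest on them. Among genes with a mean of at least 20 CPM in their set, 33 of 8756 (0.377%) differed by more than 2-fold between the highest and the lowest sample of experiment 1, and 177 of 8791 (2.01%) in experiment 2. Replicate 1 of experiment 2 was the sample farthest from the median in 173 of those 177 genes. In experiment 1, replicate 2 was the farthest in 22 of the 33. The median ratio of highest to lowest sample was 1.15 in experiment 1 and 1.18 in experiment 2.

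Replicate 1 of experiment 2 was low in a group of AT-rich genes. The 6 genes with the widest spread in that set, given in CPM, were all lowest in this sample. They included Zfp518a, Cenpf, Phip, Atrx and Trdn, and the widest, Zfp518a, had a 6.34-fold range within the set. Cenpf, which encodes a kinetochore protein of dividing cells, was at 49.1, 31.4 and 51.5 CPM in experiment 1 and at 23.5, 136 and 147 CPM in experiment 2. Atrx, which encodes a chromatin remodeller, was at 115, 70.8 and 123 CPM and at 67.6, 322 and 327 CPM. Trdn, whose product triadin sits at the calcium release site of muscle, was at 134, 69.2 and 119 CPM and at 65.2, 274 and 300 CPM. In each of these 3 genes replicate 1 of experiment 2 lay below every other control and replicates 2 and 3 lay above every other, so that the sets overlapped through 1 sample.

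The same division ran through all genes when they were ordered by base composition. Among genes of at least 5 CPM, the quintile with the lowest exon GC content (2435 genes, up to 43.8% GC) had a median log2 deviation of -0.23 in replicate 1 of experiment 2 from the other 2 samples of its set, and of 0.14 and 0.12 in replicates 2 and 3. In the quintile with the highest GC content (from 55.2%), the medians were 0.13, -0.07 and -0.04. In experiment 1, replicate 2 had the same lean as replicate 1 of experiment 2, with medians of -0.16 in the lowest and 0.05 in the highest GC quintile. By length of the gene span, replicate 1 of experiment 2 went from 0.14 in the shortest to -0.12 in the longest quintile, and replicate 1 of experiment 1 from -0.11 to 0.05.

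**Figure D1:**
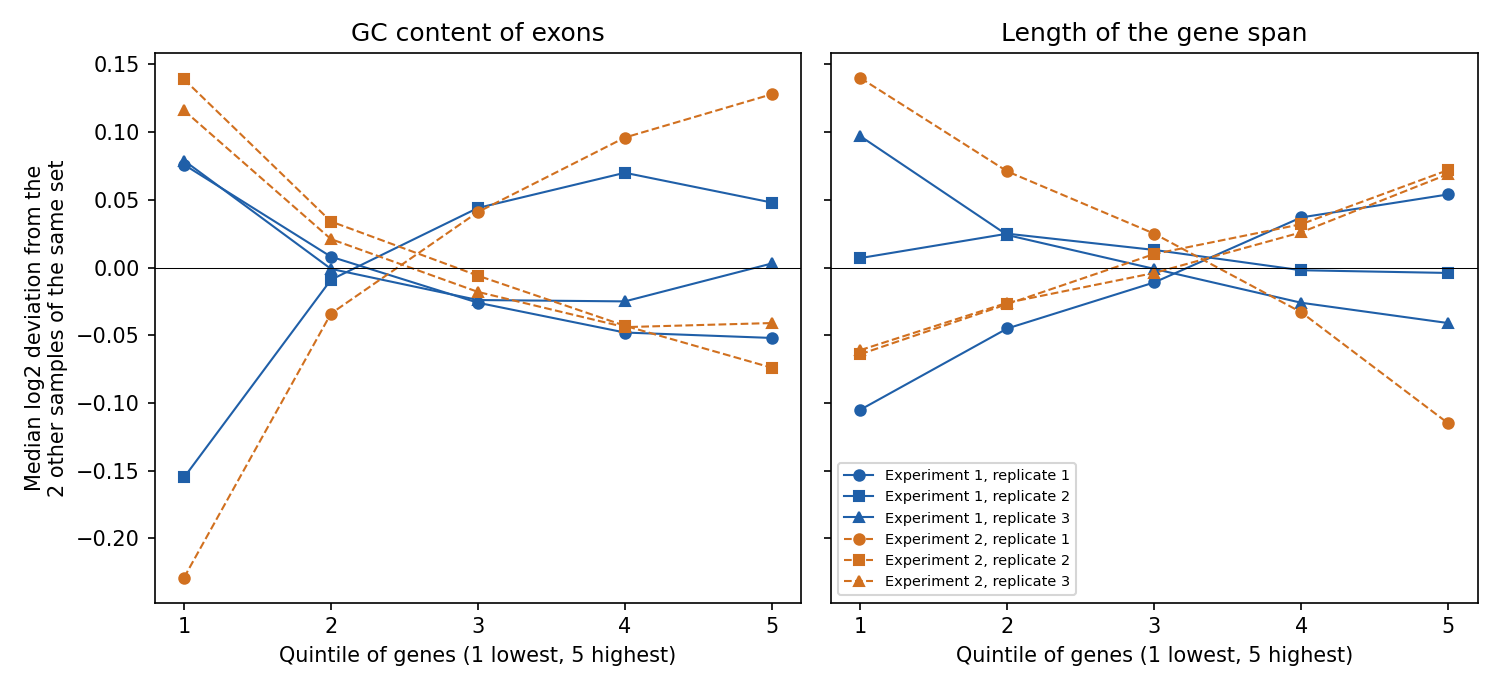
Median log2 deviation of each control sample from the other 2 samples of its set (vertical axis), over quintiles of the genes of at least 5 CPM ordered by exon GC content (left) or by gene span (right). In the lowest GC quintile, replicate 1 of experiment 2 lies at -0.23 and replicate 2 of experiment 1 at -0.16, below the other 4 samples.

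The 6 genes with the widest spread in experiment 1 followed another division. CT010467.1, annotated as an rRNA gene on chromosome 17, was at 960, 1832 and 436 CPM in experiment 1 and at 4431, 5012 and 6599 CPM in experiment 2. Lars2, which encodes the mitochondrial leucyl-tRNA synthetase, was at 371, 632 and 194 CPM and at 1285, 1584 and 2021 CPM. Gnb1l, Camk1d, Gm26561 and Il31ra had the same order of samples, with replicate 2 highest and replicate 3 lowest in experiment 1, and every sample of experiment 2 above every sample of experiment 1. Their log2 differences between the sets were large, from 2.03 for Lars2 (SE 0.52) to 2.31 for CT010467.1 (SE 0.61), but none of the 6 passed the threshold (edgeR adjusted p from 0.228 to 0.288). CT010467.1 made up nearly all counts on rRNA genes and their copies. The share of this class was 0.0976%, 0.184% and 0.0437% in experiment 1 and 0.449%, 0.494% and 0.648% in experiment 2. It is therefore no measure separate from that gene. Whether reads of ribosomal RNA set the counts of these 6 genes was not tested.

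The most abundant transcripts of the ventricle were asked for next. In the mean of the 6 controls, the 20 nuclear protein-coding genes with the highest length-scaled level fell into few groups: 5 haemoglobin genes, 5 myosin genes, 4 genes of mitochondrial proteins, 3 translation genes and 3 others. Of these 20, 19 were among the first 20 of each set taken alone. The exception, Myh7, was the 21st in experiment 1 and the 13th in experiment 2. Of the first 100 nuclear genes, the sets shared 93, and of the first 1000 they shared 934.

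Myosin light chains, which sit on the lever arm of myosin heads, led the muscle genes. Myl2, the regulatory light chain of ventricular myosin, had length-scaled levels of 5955, 5662 and 6442 in experiment 1 and 6230, 5631 and 5672 in experiment 2. Myl3, the essential light chain of ventricles, lay at 3067, 2939 and 3484 and at 3138, 2836 and 2836 on that scale. In both genes the sets overlapped, and the highest sample was replicate 3 of experiment 1. Myl7, the regulatory light chain typical of atria, lay at 2102, 3832 and 1863 and at 3399, 2539 and 2446. It was the muscle gene among the 20 with more than a 2-fold range, and its high samples were replicate 2 of experiment 1 and replicate 1 of experiment 2. Myl9, a light chain of smooth muscle and non-muscle myosin, had means of 1916 ± 194 (SD, n = 3) in experiment 1 and 1765 ± 174 (SD, n = 3) in experiment 2.

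Myh7, the slow myosin heavy chain of the fetal ventricle, had length-scaled levels of 1554, 1672 and 1204 in experiment 1 and 1864, 1898 and 1880 in experiment 2. Its sets did not overlap, experiment 2 being higher, but the difference did not pass the threshold (log2 difference 0.30, edgeR adjusted p 0.244). The 5 myosin genes together summed to 14445, 16241 and 14837 and to 16597, 14586 and 14482 on the length-scaled level, with overlapping sets.

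The genes of mitochondrial proteins were Atp5b, Atp5a1, Slc25a4 and Cox8a. They encode 2 subunits of the catalytic part of ATP synthase, the ADP/ATP carrier of heart and a subunit of cytochrome oxidase. Their summed length-scaled level was 6799, 7435 and 7000 in experiment 1 and 7495, 6496 and 6712 in experiment 2. The translation genes were the elongation factor genes Eef1a1 and Eef2 and the ribosomal stalk gene Rplp1, with sums of 7047, 7331 and 7411 and of 7725, 6768 and 6638. The remaining 3 were Igf2, a fetal growth factor gene, Tmsb4x, which encodes an actin-binding peptide, and Hsp90ab1, a chaperone gene. Igf2 had length-scaled levels of 2247, 2567 and 2040 and of 2345, 2104 and 2069. For both groups and for Igf2 the sets overlapped.

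**Figure D2:**
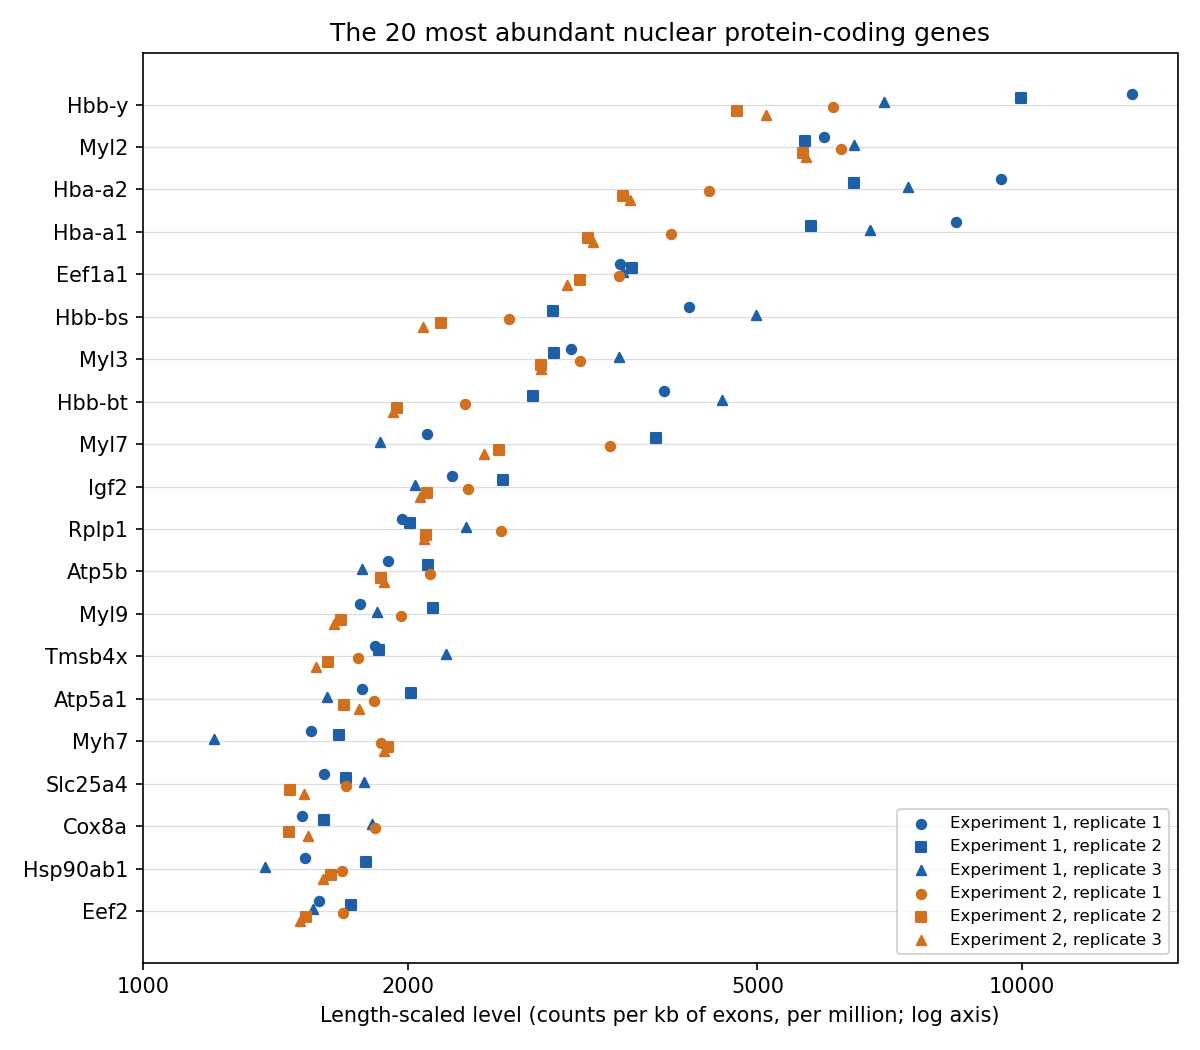
Length-scaled level (log axis) of the 20 nuclear protein-coding genes with the highest mean, with a point for each control sample, experiment 1 in blue and experiment 2 in orange. The 5 haemoglobin genes have all experiment 2 samples to the left of all experiment 1 samples, while Myl2 overlaps between 5631 and 6442.

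Abundance was spread over many genes. The 10 most abundant nuclear protein-coding genes held 9.42%, 7.72% and 8.59% of the nuclear protein-coding length-scaled level in experiment 1 and 6.42%, 5.55% and 5.61% in experiment 2, so that the sets did not overlap. The first 1000 held 53.8%, 54.0% and 54.9% and 53.6%, 51.2% and 51.4%. Reaching 50% took 798, 792 and 751 genes in experiment 1 and 818, 936 and 924 genes in experiment 2.

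When all genes were ranked per length, 15 of the first 40 were genes of mitochondrial DNA and 12 were pseudogenes. The 13 protein genes of mitochondrial DNA summed to 112233, 101420 and 122463 in experiment 1 and to 93914, 119313 and 118239 in experiment 2 on the length-scaled level. Replicate 1 of experiment 2 was the lowest, and the sets overlapped. The most abundant was mt-Co1, a cytochrome oxidase subunit, at 22425, 20524 and 24338 and at 18401, 22358 and 22005, followed by mt-Nd1 and mt-Cytb of respiratory complexes I and III.

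Nuclear copies of mitochondrial genes ranked high per length and share reads with their originals, so the level of either copy is uncertain. Unprocessed pseudogenes, the class of the chromosome 1 copies, held 1.20% to 1.64% of counts. Gm29216, a chromosome 1 pseudogene among the most abundant genes per length, lay at 11679, 10941 and 12982 and at 9703, 12016 and 11744 on the length-scaled level, with the same lowest and highest sample as mt-Co1. Genes of processed pseudogenes held 4.90%, 5.11% and 5.50% of all counts in experiment 1 and 5.03%, 4.37% and 4.37% in experiment 2. Tpt1-ps3, a copy of the abundant Tpt1 gene, was the first of these at 5036, 5347 and 6024 and at 5434, 4681 and 4723 per length. Nuclear protein-coding genes other than haemoglobin held 84.3% to 87.0% of counts in the 6 samples.

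The imprinted growth genes gave H19, a noncoding RNA that was the most abundant nuclear transcript per length apart from copies of mitochondrial genes. This RNA of the maternal chromosome lies beside Igf2, which is read from the paternal one. Its length-scaled levels were 10358, 10923 and 10886 in experiment 1 and 9829, 8179 and 8007 in experiment 2, with every sample of experiment 2 below experiment 1. The difference did not pass the threshold (log2 difference -0.36, edgeR adjusted p 0.175). In the fit without replicate 1 of experiment 2, which called 1139 of 18926 genes, H19 did pass. So did Cdkn1c, also lower, and Peg3, which was higher in experiment 2. After H19 and Igf2, Mest followed on this list of 9 genes at 1276, 1515 and 1038 and at 1241, 1160 and 1173 per length. None of the 9 genes was called on all 6 samples, and their median log2 difference was -0.12.

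Among the 20 most abundant nuclear protein-coding genes, the haemoglobin genes differed most between the control sets. Red cells carry tetramers of alpha-type and beta-type globin. Hbb-y and Hba-x are embryonic globins of yolk sac cells, while Hba-a1 and Hba-a2 encode the adult alpha chain and Hbb-bs and Hbb-bt the adult beta chain. In bulk samples, fewer cells of a type and less RNA per cell cannot be told apart.

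Hbb-y had length-scaled levels of 13322, 9968 and 6971 in experiment 1 and 6087, 4735 and 5112 in experiment 2, which made it the most abundant nuclear protein-coding gene of the mean. Hba-a1 (ENSMUSG00000069919, mm10 chr11:32283511-32284465) lay at 8405, 5759 and 6709 and at 3983, 3212 and 3254 on that scale. Hba-a2 (ENSMUSG00000069917, mm10 chr11:32296489-32297298) lay at 9470, 6435 and 7411 and at 4410, 3512 and 3586. All experiment 2 samples were lower than all experiment 1 samples for these 3 genes. Within experiment 1, replicate 1 was the highest for each, and within experiment 2 replicate 1 was the highest.

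In CPM, Hba-a1 fell from 2221 ± 403 (SD, n = 3) in experiment 1 to 1075 ± 136 (SD, n = 3) in experiment 2, a log2 difference of -1.05 (SE 0.13, edgeR adjusted p 0.000961). Hba-a2 fell from 2037 ± 379 to 972 ± 128 CPM (SD, n = 3 each), a log2 difference of -1.07 (SE 0.13, edgeR adjusted p 0.0017). Without replicate 3 of experiment 1, both were no longer called, the only leave-one-out fit of 6 in which that happened. Hbb-y (log2 difference -0.96, edgeR adjusted p 0.171), Hbb-bt (-0.92, 0.185), Hbb-bs (-0.87, 0.250) and Hba-x (-1.21, 0.225) did not pass the threshold, though their sets did not overlap either. Hbb-bh1, another embryonic gene, overlapped. Hbb-y was called without replicate 1 or without replicate 3 of experiment 1, Hbb-bh1 without replicate 3, and Hbb-bs and Hbb-bt without replicate 2 of experiment 1.

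The 7 haemoglobin genes summed to 10902, 7835 and 9232 CPM in experiment 1 and to 5374, 4272 and 4405 CPM in experiment 2, and none was at 0. A separate list of 10 erythroid genes, of which 9 are in the tables (Ahsp is not) and Alas2 was at 0 as a covered gene, summed to 117, 81.4 and 63.4 CPM and to 45.4, 45.0 and 44.4 CPM. Its most abundant member, the anion exchanger gene Slc4a1, lay at 48.5, 33.5 and 22.2 and at 17.5, 17.0 and 15.9 on the length-scaled level. Both erythroid lists were thus lower in every sample of experiment 2, with log2 ratios of set means of -0.99 and -0.96. Epb42 had overlapping sets. No gene of this list was called on all 6 samples. Slc4a1 was called without replicate 1 or without replicate 3 of experiment 1. The 6 platelet genes, led by Pf4, Itga2b and Ppbp with none at 0 in all samples, summed to 18.7, 19.3 and 16.04 CPM and to 10.1, 14.5 and 15.4 CPM. How much blood the ventricles held was not measured, and its part in the haemoglobin difference was not tested.

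Hba-a1 and Hba-a2 are near-identical copies, so how reads were split between them is uncertain, and their promoters show how alike the copies are. The 120 bases before the start of each gene, from the RefSeq table on GRCm38.p6 with all 3 symbols matched, are printed for this pair that moved together and for Hbb-y, which moved the same way without being called. Hba-a1 is chr11:32283552-32283671 on the plus strand, Hba-a2 is chr11:32296372-32296491 on the plus strand, and Hbb-y is chr7:103853208-103853327 on the minus strand. RefSeq and GENCODE place the starts differently: the Hba-a1 stretch lies wholly inside the GENCODE span given above, and those of Hba-a2 and Hbb-y reach a few bases into theirs. Capitals mark the letters TATAA, the core of the TATA box.
Hba-a1: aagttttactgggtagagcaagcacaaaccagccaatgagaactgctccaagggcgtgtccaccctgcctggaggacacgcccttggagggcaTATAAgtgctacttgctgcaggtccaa
Hba-a2: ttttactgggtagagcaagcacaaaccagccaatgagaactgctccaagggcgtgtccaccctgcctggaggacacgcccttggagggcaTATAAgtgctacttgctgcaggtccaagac
Hbb-y: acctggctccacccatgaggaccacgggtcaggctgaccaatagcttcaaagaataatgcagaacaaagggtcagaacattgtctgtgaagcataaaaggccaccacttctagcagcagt

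The alpha-globin promoters shared an unbroken run of 117 bases, offset by 3 bases because the annotated starts differ, while Hba-a1 and Hbb-y shared a run of 7 bases at most. TATAA begins 27 bases before the start in Hba-a1 and 30 bases before it in Hba-a2. On either strand within 50 bases before the start, it was found in 2089 of 32851 promoters (6.36%). Of the 20 most abundant genes, 17 were matched in the promoter table, and 5 of these held TATAA there: Hba-a1, Hba-a2, Hbb-bs, Hbb-bt and Eef2. Hbb-y held none in this window. Atp5a1, Hsp90ab1 and Rplp1 were not matched.

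Pairs of related genes describe which isoform the ventricle used. As the heart matures, several sarcomere and metabolic genes give way to a relative, and ventricles and atria use different light chains. Of 12 pairs, 10 had counts in both genes in all 6 controls, and the first gene was higher per length in all 6 samples in 9 of these. The pair of Actc1 with Acta1 could not be read, since both genes are covered. Atp2a1, the skeletal calcium pump gene, was at 0 in replicate 2 of experiment 2 and at 0.438 to 0.701 per length elsewhere, against 475 to 733 for Atp2a2, the cardiac pump gene.

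Myh7 exceeded Myh6, the fast myosin heavy chain of the adult mouse heart, by a log2 ratio of 1.01, 0.74 and 1.06 in experiment 1 and 0.89, 0.85 and 0.87 in experiment 2. Both genes were thus abundant, with Myh7 1.87-fold higher in the mean. Tnni1, the fetal troponin I gene, exceeded the adult Tnni3 by 0.57, 0.67 and 0.50 and by 0.63, 0.63 and 0.70. The sets overlapped in both pairs.

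Myl2 exceeded its atrial counterpart Myl7 by a log2 ratio of 1.502, 0.56 and 1.79 in experiment 1 and 0.87, 1.15 and 1.21 in experiment 2. It was the pair with the widest range, and the low samples were again replicate 2 of experiment 1 and replicate 1 of experiment 2. Myl3 exceeded its atrial counterpart Myl4 by 1.44, 1.17 and 1.62 and by 1.42, 1.40 and 1.43, with the lowest value in the same sample of experiment 1. Tnnt2, cardiac troponin T, was 3.40-fold above the slow skeletal Tnnt1 in the mean.

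Among metabolic pairs, Slc2a1, the glucose transporter of fetal heart, was 3.34-fold above the insulin-responsive Slc2a4, and Hk1 was 1.87-fold above Hk2, the hexokinase of insulin-sensitive muscle. Ldha, the lactate dehydrogenase subunit of glycolytic tissue, exceeded Ldhb by a log2 ratio of 0.70, 0.70 and 0.56 in experiment 1 and 0.49, 0.53 and 0.54 in experiment 2. Of the pairs, Ldha with Ldhb was the 1 whose sets did not overlap. Ckb and Ckm, the brain and muscle creatine kinase genes, were nearly equal, at log2 ratios of 0.17, 0.62 and -0.49 and of -0.24, -0.15 and 0.08, so that neither gene led in all samples. Mef2c, the early cardiac MEF2 gene, was 7.39-fold above Mef2a. The level of Mef2a is a lower bound, because 56.1% of its span lies under other genes, so this fold is an upper bound. These ratios depend on the length used: with the longest transcript in place of all exons, the mean log2 ratio was 1.78 in place of 0.90 for Hk1 to Hk2, 2.31 in place of 1.18 for Myl2 to Myl7 and 1.18 in place of 0.59 for Ldha to Ldhb. The ratio of Tnni1 to Tnni3 fell, to 0.18 in place of 0.62.

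**Figure D3:**
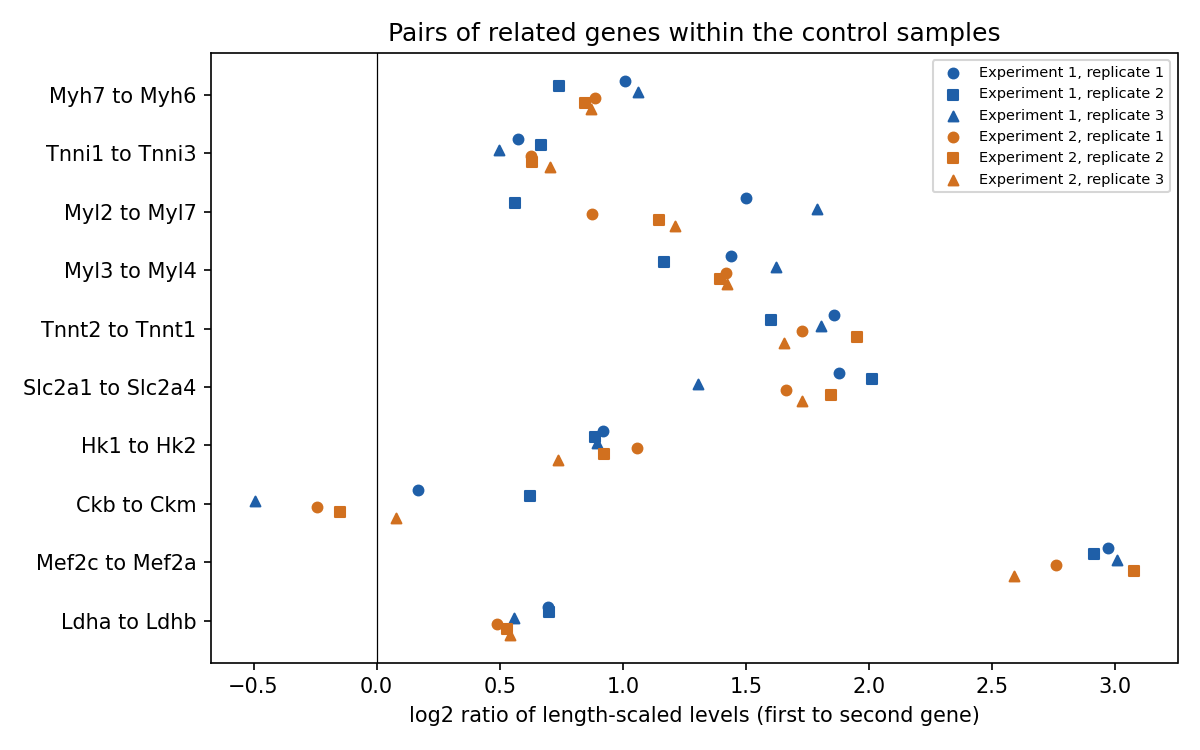
Log2 ratio of the length-scaled levels of the first to the second gene of each pair, with a point for each control sample; the line marks equal levels. The Ckb to Ckm ratio crosses the line, from -0.49 to 0.62, and the other 9 pairs lie to its right.

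Cell types were then read from marker lists, the label of ventricle being checked against them. Cardiomyocyte genes were high: the 10 genes summed to 7702, 7597 and 7921 in experiment 1 and to 8147, 7765 and 7734 in experiment 2 on the length-scaled level. Only the covered Tnnc1 and Actc1 were at 0. The 3 most abundant members were Myl3, Tnnt2 at 1466, 1384 and 1495 and at 1489, 1450 and 1450, and Mybpc3, the myosin-binding protein C gene, at 1311, 1371 and 1108 and at 1469, 1532 and 1543 per length. Mybpc3 was above experiment 1 in every sample of experiment 2 and was not called (log2 difference 0.22, edgeR adjusted p 0.387).

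The 4 ventricular genes summed to 7711, 7524 and 7838 and to 8288, 7730 and 7749 on the length-scaled level, with 76.0% of it in Myl2. After Myl2 and Myh7 came Irx4, a homeobox gene of ventricular fate, at 114, 96.0 and 109 and at 117, 104 and 104 per length. The 8 atrial genes summed to 3360, 5322 and 3103 and to 4759, 3768 and 3643, with 67.6% of it in Myl7, so that the ventricular sum exceeded the atrial sum per length in every sample. Myl4 came next at 1130, 1308 and 1131 and at 1175, 1077 and 1056, then Dkk3 at 81.9, 102 and 62.0 and at 106, 101 and 88.8. Replicate 2 of experiment 1 was the highest sample of the atrial sum and replicate 1 of experiment 2 the next, and the sets overlapped.

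The sum of the pacemaker and conduction genes was highest in the same sample of experiment 1. The 7 genes summed to 97.9, 129 and 78.4 and to 109, 111 and 107 on the length-scaled level, led by Tbx18, Cacna2d2 and Vsnl1. Vsnl1, a calcium sensor gene of the sinus node, lay at 7.75, 20.8 and 5.58 and at 13.1, 11.2 and 9.85 per length. Tbx18, the most abundant, Tbx3 and Isl1 were not highest in replicate 2 of experiment 1. None of the atrial or the conduction genes was called on all 6 samples, and the atrial gene Nr2f1 was called without replicate 2 of experiment 1. How much atrial tissue went into each sample was not recorded, and its part in the position of replicate 2 of experiment 1 was not tested.

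Markers of both muscle layers were present. The 7 trabecular genes summed to 2437, 2725 and 2020 and to 2419, 2290 and 2350 on the length-scaled level. They were led by the natriuretic peptide gene Nppa, a lower bound at 72.8% cover, which lay at 1431, 1686 and 1063 and at 1506, 1329 and 1451, followed by Nppb and Cited1. The 3 compact layer genes summed to 247, 256 and 224 and to 259, 309 and 299. Of these, Tbx20, a T-box gene of the myocardium, lay at 113, 114 and 95.6 and at 129, 169 and 161 per length, with no overlap of the sets, and it was called (log2 difference 0.47, SE 0.10, edgeR adjusted p 0.0322). Tbx20 lost the call without replicate 1 or 3 of experiment 1 and without replicate 2 or 3 of experiment 2. Hey2 and Mycn, the other 2 genes, were not called and had overlapping sets.

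RNA of endothelial genes was present in all samples. The 10 endothelial genes summed to 697, 780 and 581 in experiment 1 and to 685, 679 and 677 in experiment 2 on the length-scaled level, led by Eng, Cdh5 and Tie1, which encode a TGF-beta coreceptor, the junction protein VE-cadherin and a receptor kinase. Experiment 2 lay within the range of experiment 1. The 3 endocardial genes Npr3, Nfatc1 and Nrg1 summed to 83.8, 83.5 and 71.5 and to 87.0, 95.6 and 87.6, with experiment 2 higher in every sample and none of the 3 called. The 5 coronary genes, of which the covered Esm1 was at 0, summed to 76.1, 88.6 and 91.9 and to 92.5, 92.2 and 86.2, led by Gja4, Fabp4 and Apln. The 4 lymphatic genes summed to 82.8, 90.9 and 74.4 and to 89.1, 87.6 and 86.3, led by Prox1, Pdpn and Flt4, of which Prox1 is also expressed in cardiomyocytes.

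The epicardium gave 10 markers, none at 0, that summed to 336, 329 and 291 and to 305, 306 and 297 on the length-scaled level, led by Krt19, Upk3b and Tbx18. In CPM the sum was 403, 389 and 378 in experiment 1 and 363, 361 and 358 in experiment 2, so that experiment 2 was lower in every sample on that scale, while on the length-scaled level the sets overlapped. None of the 10 genes was called.

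The sum of the fibroblast and cushion mesenchyme markers was higher in experiment 2 on both scales. The 10 genes, with the covered Scx at 0, summed to 936, 851 and 780 and to 1091, 1119 and 1056 on the length-scaled level. Col3a1, a fibrillar collagen gene (mm10 chr1:45311538-45349706), lay at 216, 223 and 163 and at 288, 294 and 265 per length and was called (log2 difference 0.45, SE 0.10, edgeR adjusted p 0.0419), as the only gene of this list, with the call lost in the same 4 fits as that of Tbx20. Col1a1 lay at 215, 158 and 171 and at 238, 208 and 189, and Postn, which encodes a matrix protein of cushions, at 136, 101 and 118 and at 138, 225 and 208. Col1a1 overlapped between the sets and Postn did not, and neither was called, although Postn was without replicate 1 of experiment 2, and Pdgfra without replicate 2 of experiment 1. In all, 7 of the 9 tested genes of the list were higher in experiment 2, with a median log2 difference of 0.27, against a median near 0 over all tested genes. The other 2, Dcn and Lum, named after their values were seen, had log2 differences of -0.09 and -0.03 and overlapping sets. The sets of Pdgfra, Twist1 and Sox9 overlapped too.

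The 6 mural genes summed to 82.8, 71.5 and 76.4 and to 81.8, 79.6 and 81.1 on the length-scaled level, led by Rgs5, Pdgfrb and Cspg4, of which Rgs5 was called without replicate 2 of experiment 1. Myh11, the smooth muscle myosin heavy chain gene of this list, named after its values were seen, was its lowest member at 0.362 to 0.813 per length. The 11 macrophage genes summed to 172, 173 and 181 and to 176, 197 and 173, led by the lysozyme gene Lyz2 and the complement genes C1qb and C1qa, and none was at 0. The 8 genes of other white blood cells summed to 4.15 to 10.2, with Cd3e at 0 and S100a9, Cpa3 and S100a8 leading.

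Other organs left little trace. The 7 hepatocyte genes summed to 3.80 to 7.35 on the length-scaled level over the 6 samples, led by Apoa2, Ahsg and Ttr. The lung and gut list summed to 0.184 to 0.676, with Epcam and Cdh1 as the only members above 0 and Sox2 covered. The 7 skeletal muscle genes summed to 15.2 to 23.9, most of it Mylpf, followed by Tnnt3 and Myog. The 5 autonomic neuron genes, led by Stmn2, Prph and Th, summed to 0.655 to 3.73. The 5 Schwann and neural crest genes summed to 13.1, 12.9 and 11.8 and to 14.2, 16.4 and 17.6, led by Erbb3, with no overlap of the sets and no gene called on all 6 samples. Sox10, the defining factor of that lineage, was at 0.601 to 1.17.

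**Figure D4:**
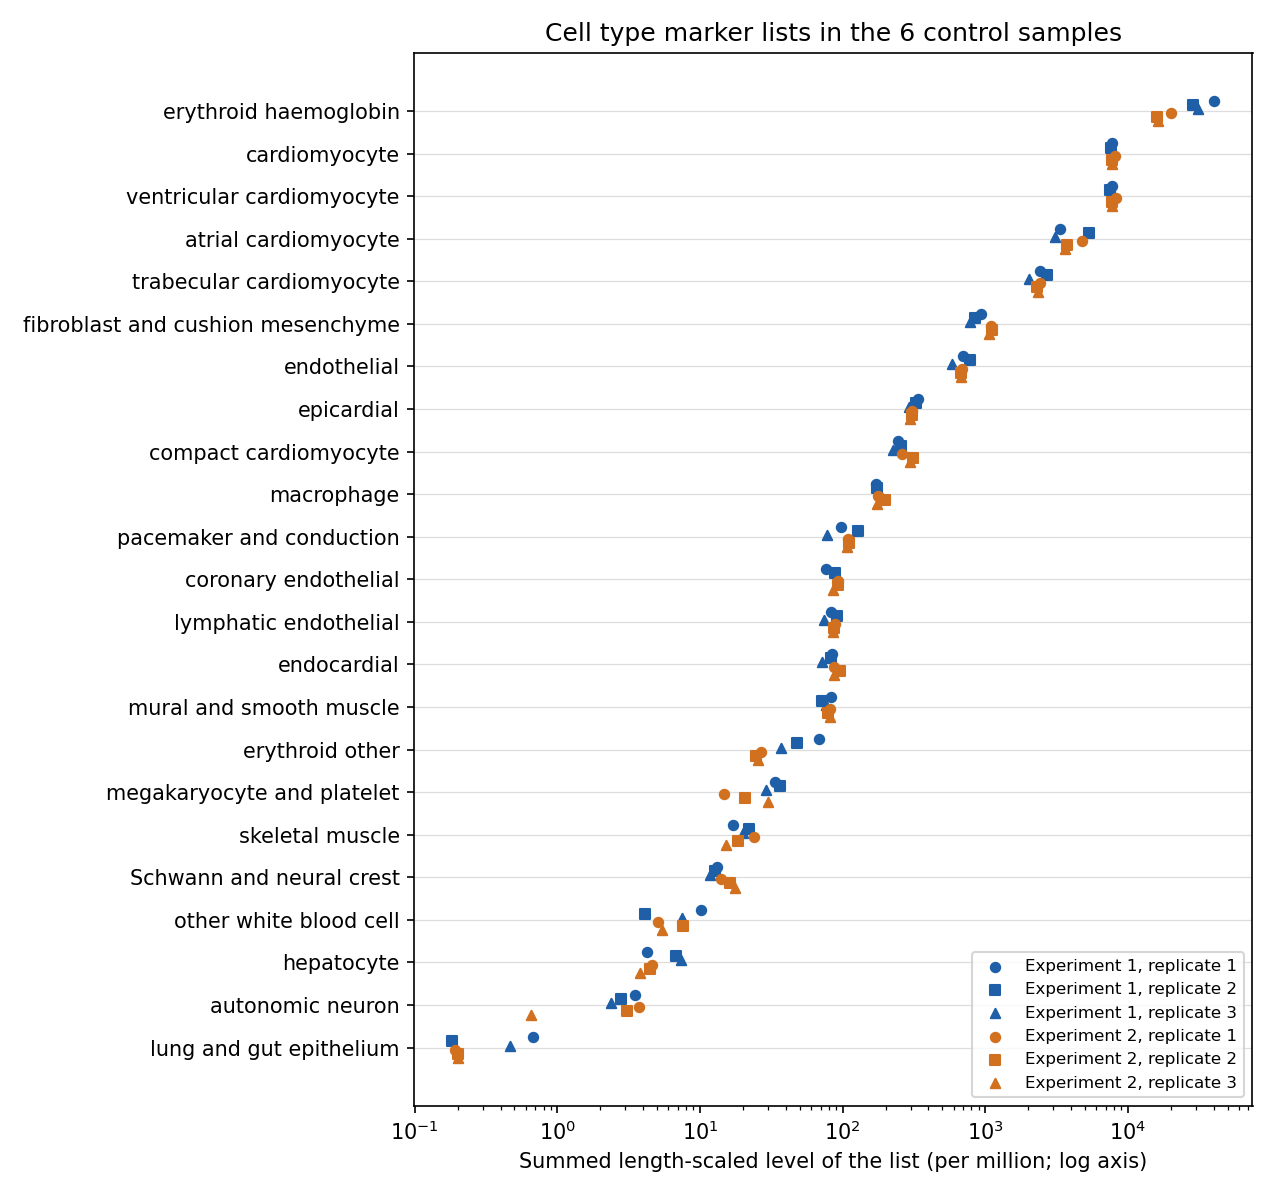
Summed length-scaled level (log axis) of 23 cell type marker lists, with a point for each control sample. Cardiomyocyte sums lie between 7597 and 8147 in all samples, and the 2 erythroid lists are the lists with the clearest gap between the experiments.

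Across all 37 lists, the summed CPM of the sets did not overlap in 16, of which 9 were higher and 7 lower in experiment 2. Among single genes, 3217 of 18751 tested genes (17.2%) had sets that did not overlap in CPM, and of the 291 listed genes tested, 65 (22.3%) did. On the length-scaled level, 7 lists did not overlap: both erythroid lists, compact cardiomyocyte, endocardial, fibroblast, Schwann and imprinted growth genes. The cardiomyocyte list did not overlap in CPM alone, at 12313, 11861 and 12913 and at 13353, 15028 and 15114. Ttn, a gene of this list named after its values were seen, lay at 28.5, 20.0 and 21.1 in experiment 1 and at 39.0, 84.4 and 85.0 in experiment 2 per length. Its difference was not called on all 6 samples and was called without replicate 1 of experiment 2.

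Functional lists give the state of the tissue. The 18 cardiac transcription factors summed to 1492, 1465 and 1427 in experiment 1 and to 1553, 1442 and 1486 in experiment 2 on the length-scaled level, led by Hopx, Nkx2-5 and Gata4, with the covered Srf at 0. Of them, Tbx20 and Myocd were called. Myocd encodes a coactivator of muscle genes and lay at 43.1, 37.2 and 39.3 and at 51.0, 62.9 and 66.0 per length, with experiment 2 higher in every sample (log2 difference 0.54, SE 0.10, edgeR adjusted p 0.0155). The 14 calcium handling genes summed to 2306, 2526 and 2074 and to 2537, 2491 and 2529, led by Atp2a2, Calr and Casq2, with the covered Pln at 0. Of these, Ryr2, the calcium release channel gene, was called at 30.6, 28.1 and 24.8 and at 34.0, 44.2 and 43.4 per length (log2 difference 0.49, SE 0.10, edgeR adjusted p 0.0225). Myocd lost the call without replicate 2 or 3 of experiment 2, and Ryr2 without these or without replicate 1 or 3 of experiment 1.

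The division genes were abundant. According to the paper, MuvB with its partner B-MYB acts mainly on genes of mitosis and cytokinesis. The 25 mitosis genes summed to 1557, 1559 and 1309 and to 1419, 1531 and 1605 on the length-scaled level, with the covered Prc1 at 0, and Ccnb2, Ccna2 and Top2a, which encode B-type and A-type cyclins and topoisomerase II, led. Ccnb2 lay at 157, 172 and 132 and at 156, 143 and 145 per length. The 15 replication genes summed to 941, 1067 and 886 and to 973, 924 and 888, led by Pcna, Rrm2 and Mcm6, with the covered Cdt1 and Gins2 at 0. No gene of either list was called on all 6 samples, and the median log2 differences were -0.07 and -0.10. Mki67, Cenpf, Aspm and Knl1, named after their values were seen, were higher in replicates 2 and 3 of experiment 2 than in the other 4 samples. Mki67 lay at 39.8, 29.8 and 36.7 and at 36.2, 105 and 113 per length. Without replicate 1 of experiment 2 these 4 genes and Bub1 were called higher in experiment 2, and Cdk1, Aurka and Pcna were called lower. That fit called 1139 of all 18926 tested genes, 800 higher and 339 lower, and 37 of the 291 listed genes.

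The subunits of MuvB and its partners were read as a list. The 11 MuvB and DREAM genes summed to 352, 360 and 325 and to 338, 345 and 341 on the length-scaled level, led by Tfdp1, Rbbp4 and E2f4. In CPM they summed to 616, 642 and 622 and to 602, 599 and 606, with every sample of experiment 2 lower. The 18 Hippo and YAP genes summed to 964, 916 and 818 and to 887, 878 and 843. Tead2, the most abundant of them, lay at 108, 114 and 106 and at 108, 113 and 107, followed by the YAP target genes Ccn2, a lower bound at 51.4% cover, at 103, 88.6 and 66.8 and at 76.2, 80.0 and 74.7, and Ccn1, at 132, 87.8 and 72.5 and at 66.0, 66.2 and 52.7. Ccn1 was lower in every sample of experiment 2 and was not called (log2 difference -0.70, edgeR adjusted p 0.323). None of the genes of these lists was called on all 6 samples. In the fit without replicate 1 of experiment 2, which called 1139 of 18926 genes, Lin52, Mob1b and Stk3 were called higher and Mob1a lower.

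Genes that answer to handling were present in all samples. The 13 immediate early genes summed to 307, 291 and 287 CPM in experiment 1 and to 272, 238 and 249 CPM in experiment 2, led by Jun, Ier2 and Atf3 per length. Every sample of experiment 2 was lower in CPM, the median log2 difference was -0.24, and no gene was called on all 6 samples, while Ier2 was called without replicate 1 of experiment 2. The 14 hypoxia and glycolysis genes summed to 3021, 3271 and 3061 and to 3162, 2970 and 3030 on the length-scaled level, led by Aldoa, Ldha and Pgk1, with the covered Adm at 0. The 10 heat shock genes summed to 2409, 2555 and 2400 and to 2533, 2447 and 2426, led by Hspb7, Hspa8 and Hspb1. The 3 metallothionein genes summed to 90.4, 85.6 and 112 and to 105, 89.1 and 84.5, led by Mt1, Mt3 and Mt2. No gene of these 3 lists was called on all 6 samples. In the fit without replicate 1 of experiment 2, which called 1139 of 18926 genes, Hsp90aa1 was called higher and Hspe1 lower.

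Malat1 and Meg3 among the nuclear RNAs, and Eif2s3y, Ddx3y and Uty among the Y-linked genes, were lower in replicate 1 than in replicates 2 and 3 of experiment 2, while Kdm5d of the Y chromosome was not. Malat1, a noncoding RNA kept in the nucleus, lay at 254, 156 and 177 in experiment 1 and at 261, 471 and 493 in experiment 2 per length, and Meg3 at 55.3, 43.9 and 46.5 and at 41.1, 64.0 and 60.1, with Neat1 below 3. Malat1 was higher in every sample of experiment 2 and was not called (log2 difference 1.01, edgeR adjusted p 0.380), but was called without replicate 1 of experiment 2. The covered Kcnq1ot1 and Xist of this list of 5 could not be read. The 4 Y-linked genes summed to 59.3, 42.6 and 33.7 and to 45.9, 76.5 and 71.4 on the length-scaled level, so that RNA of the Y chromosome was present in all 6 samples.

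The number of genes seen followed depth. At least 1 count was found on 20842, 20759 and 20671 genes in experiment 1 and on 18457, 18733 and 18645 in experiment 2. After random thinning of all 6 samples to 2912330 counts, the numbers were 18484, 18428 and 18400 and 18438, 18722 and 18645. The excess of experiment 1 in the medians, 2114 genes, became -217 genes, and the lowest sample of experiment 2 lay within the range of experiment 1.

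Agreement of the sets was described across the 18751 genes tested, which are not independent replicates. Pearson correlations of log2 length-scaled levels were 0.990 to 0.992 within experiment 1, 0.973 to 0.978 within experiment 2 and 0.976 to 0.984 between samples of the 2 experiments. Thinned to the same depth, they were 0.977 to 0.978, 0.973 to 0.978 and 0.969 to 0.978. The pairs share depth within an experiment and gene length and base composition throughout. Set means correlated at 0.991. Of 8781 genes with a mean of at least 20 CPM, 8552 (97.4%) had set means within 1.5-fold of each other.

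The spread between replicates exceeded counting noise in most pairs. The chi-square per degree of freedom between pairs of samples, which is near 1 for samples that differ by counting alone, was 5.67 to 10.3 in experiment 1. In experiment 2 it was 4.87 and 5.11 for pairs with replicate 1, and 1.22 for replicates 2 and 3, which thus differed by little more than counting. Whether these are separate embryos cannot be told from the labels. Between the experiments it lay between 3.77, for replicate 2 of experiment 1 with replicate 1 of experiment 2, and 17.4, for replicate 3 of both. The chi-square grows with depth, so its values within experiment 1 and within experiment 2 are not comparable. The common biological coefficient of variation from edgeR, which allows for depth, was 0.093 in experiment 1 controls and 0.109 in experiment 2 controls.

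**Figure D5:**
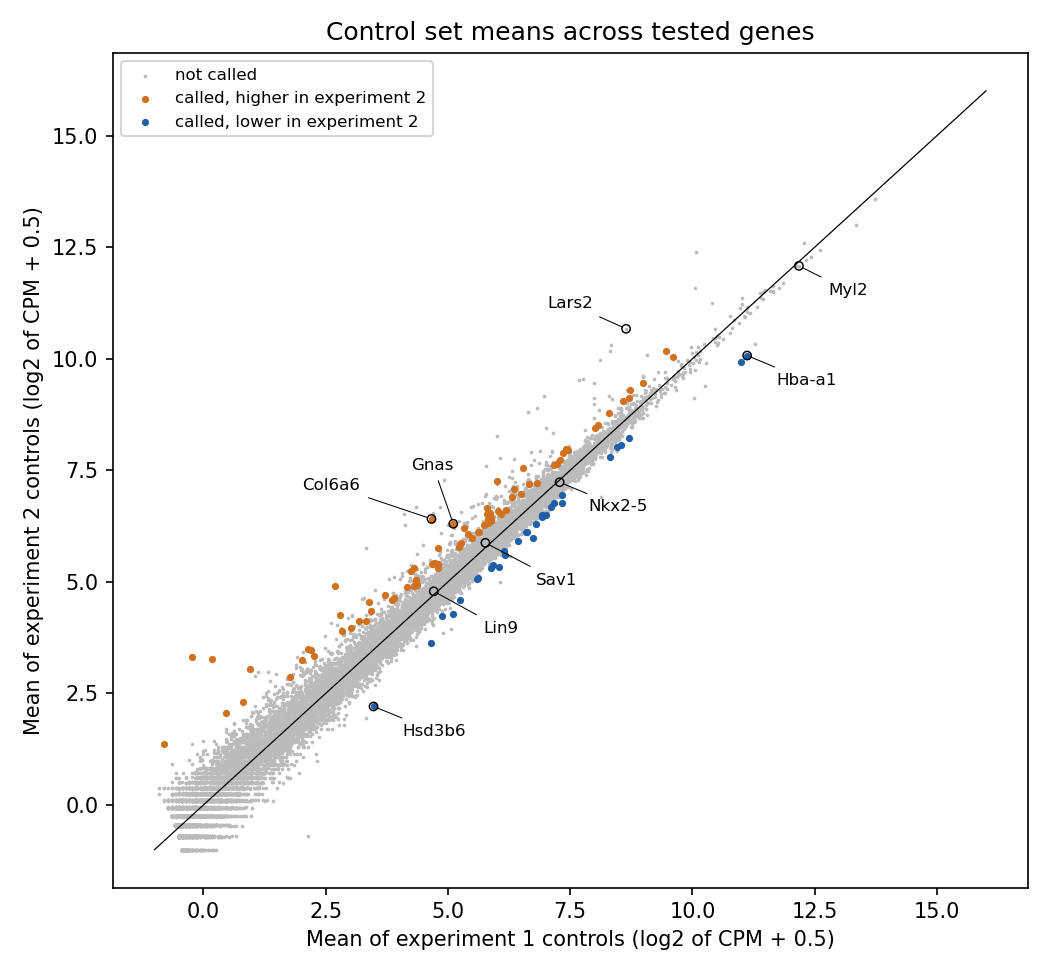
Mean of the experiment 1 controls against mean of the experiment 2 controls for 18751 tested genes (log2 of CPM + 0.5), with 80 genes called higher in orange and 30 called lower in blue; the line marks equality. Most genes lie along the line, with Hba-a1 below it and Col6a6 and Gnas above it.

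Which genes differ between controls matters because each knockout was compared within its own experiment. Experiment and set cannot be told apart here, since all samples of a set share their experiment. Of 18751 tested genes, 110 (0.587%) passed an adjusted p of 0.05 in edgeR's quasi-likelihood test, 80 higher (0.427%) and 30 lower (0.16%) in experiment 2, and 2222 had an unadjusted p under 0.05. Of the 291 listed genes tested, 6 (2.06%) were called: Hba-a1, Hba-a2, Tbx20, Myocd, Ryr2 and Col3a1. None of the 6 was called in all 6 leave-one-out fits, and the number of listed genes called was 37 without replicate 1 of experiment 2, 2 without replicate 2 or 3 of experiment 2, and 5, 12 and 4 without replicates 1, 2 and 3 of experiment 1. Of the 110 genes, 87 were protein-coding and 19 were pseudogenes, and of the 30 lower genes 12 were pseudogenes. The median absolute log2 difference was 0.60 among called and 0.18 among all tested genes.

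The count depended on single libraries. It was 1139 without replicate 1 of experiment 2, the sample that stood apart within its set, 16 without replicate 2 and 21 without replicate 3 of that experiment. It was 61 without replicate 1, 128 without replicate 2 and 39 without replicate 3 of experiment 1. Replicate 1 was the experiment 2 control nearest to each experiment 1 control, with a chi-square per degree of freedom of 6.26, 3.77 and 9.84. Replicate 2 of experiment 2 had values of 9.32, 12.2 and 15.2, and replicate 3 had 11.4, 13.6 and 17.4. With each other, replicates 2 and 3 of experiment 2 had a value of 1.22. Fits that keep only these 2 samples of experiment 2 may therefore understate the spread between controls. In a fit of 12 libraries with the LIN9 KO ventricles, whose spread was wider, 2 genes were called. It was 1515 without both libraries that stood apart, an alternative chosen after seeing the data. The number of genes that differ between the control sets is thus not settled by these samples. DESeq2 called 157 genes, 131 of them higher (83.4%, against 72.7% in edgeR).

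Of the 22 genes named by size of change, 5 were called in all 6 leave-one-out fits: Col6a6, Gnas, Rps15a-ps2, Gm24245 and Gm13192. The other 17 lost the call in up to 4 of these fits, 15 of them without replicate 2 and 13 without replicate 3 of experiment 2, 10 without replicate 3, 7 without replicate 1 and 2 without replicate 2 of experiment 1. All 22 kept their call without replicate 1 of experiment 2, and all 22 kept their direction in every such fit.

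Col6a6, a chain of microfibrillar collagen VI (ENSMUSG00000043719, mm10 chr9:105687809-105828160), was at 24.2, 29.9 and 20.5 CPM in experiment 1 and at 68.9, 91.1 and 93.7 CPM in experiment 2. Every sample of experiment 2 was more than 2-fold above every sample of experiment 1. The order of samples within both sets was that of the rRNA share, which is nearly all CT010467.1. The part of rRNA reads in this difference was not tested. Its log2 difference was 1.77 (SE 0.15, edgeR adjusted p 5.45e-05). Gnas, an imprinted locus that encodes the stimulatory G protein alpha subunit, was at 36.2, 30.0 and 35.9 CPM and at 91.4, 66.1 and 77.6 CPM, a log2 difference of 1.20 (SE 0.12, edgeR adjusted p 1.36e-05). Other genes lie under 44.1% of its span, so its counts are partial. Gnas was likewise higher in experiment 2 in the LIN9 KO ventricles (log2 difference 1.41, SE 0.12, edgeR adjusted p 1.21e-06), which share no samples with the controls.

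The other 6 of the 8 largest increases among protein-coding genes were Ctnna2, Plcb1, Lrmda, Npas3, Mphosph8 and Dock10, with log2 differences from 1.19 to 1.54. Ctnna2, Plcb1, Lrmda and Npas3 encode an alpha-catenin, a phospholipase, a melanocyte protein and a transcription factor of neurons, and their spans run from 689192 to 1098063 bases. Npas3 was at 2.79, 3.58 and 4.20 CPM and at 8.07, 9.35 and 9.44 CPM. Plcb1 was at 3.83, 3.68 and 4.20 CPM and at 5.71, 15.6 and 11.2 CPM, with replicate 1 of experiment 2 the lowest of its set. Mphosph8, a chromatin silencing gene, was at 75.2, 58.5 and 58.1 CPM and at 116, 161 and 180 CPM.

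The 8 largest decreases among protein-coding genes were Hsd3b6, Hba-a2, Hba-a1, Tent5c, Car2, Hmox1, Gmnn and Rps19. Hsd3b6, a steroid dehydrogenase gene, was at 13.0, 11.5 and 7.45 CPM and at 4.37, 5.19 and 2.80 CPM, a log2 difference of -1.36 (SE 0.29, edgeR adjusted p 0.0286). Car2, the carbonic anhydrase of red cells among others, was at 38.2, 37.4 and 37.3 CPM and at 24.2, 23.2 and 23.1 CPM, a log2 difference of -0.68 (SE 0.12, edgeR adjusted p 0.0104). Tent5c, which extends poly(A) tails, was at 42.3, 30.3 and 29.4 CPM and at 19.8, 17.0 and 19.9 CPM, and Hmox1, the haem-degrading enzyme, at 30.0, 27.7 and 28.5 CPM and at 18.2, 20.1 and 17.1 CPM. Their sets did not overlap. Gmnn, a brake on replication licensing, and Rps19, a ribosomal protein gene, had log2 differences of -0.56 and -0.55.

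Among other gene classes, the largest increases were Gm24245, annotated as a miRNA gene of 57 bases, and the processed pseudogenes Gm13192 and Atp5k-ps2, with log2 differences of 2.32, 0.97 and 0.97. Gm24245 was at 5.48, 8.42 and 3.88 CPM and at 25.2, 25.6 and 38.1 CPM, with the order of samples of the rRNA share within both sets. The part of rRNA reads in its difference was not tested. The largest decreases were Rps15a-ps2, Rpl13a-ps1 and Gm8394, also processed pseudogenes, with log2 differences of -1.06, -0.76 and -0.73. Pseudogene counts share reads with their parent genes and are uncertain.

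Gene length moved with the difference. Over quintiles of the genes of at least 5 CPM, ordered by gene span, the median log2 difference of experiment 2 minus experiment 1 was -0.11, -0.05, -0.03, 0.02 and 0.12 from shortest to longest. The longest quintile held 51 of the genes called higher and 1 called lower, and the shortest quintile held 10 called higher and 18 called lower. By GC content the medians ran from 0.07 in the lowest to -0.03 in the highest quintile. With a GC offset in the fit, an alternative chosen after seeing the data, 260 genes were called. The part of gene length in the calls was not tested.

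The same comparison between experiments in LIN9 KO ventricles gives values from samples that the controls do not share. It called 271 of 19021 genes (1.42%), 88 higher and 183 lower in experiment 2, or 87 higher and 66 lower on library totals alone. That count was 3 without replicate 1, 447 without replicate 2 and 410 without replicate 3 of the LIN9 KO ventricles of experiment 1, and 722, 3 and 83 without replicates 1, 2 and 3 of those of experiment 2. It was 134 without control replicate 1 of experiment 1, and 69 and 70 without control replicates 2 and 3 of experiment 2. Of the 110 genes of the controls, 107 (97.3%) had the same sign in LIN9 KO, against 63.7% of 18577 genes tested in both. The other 3 were Tnc, Gm8991 and Gm3005, named after their values were seen. Called in both were 27 genes, 24.5% of the 110 and 9.96% of the 271, all with the same sign. The length pattern was also there, with medians from -0.17 in the shortest to 0.15 in the longest quintile.

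Haemoglobin was lower in experiment 2 in LIN9 KO ventricles too, without passing the threshold: the log2 difference was -0.99 for Hba-a1 (SE 0.37, edgeR adjusted p 0.227) and -0.97 for Hba-a2 (SE 0.37, edgeR adjusted p 0.232). Col6a6 was at 2.11 (SE 0.65, edgeR adjusted p 0.161). Whether the difference between experiments itself differed between control and LIN9 KO ventricles was tested as an interaction over 19021 genes. It called 0 genes (0%) in edgeR, with 968 at an unadjusted p under 0.05, and 0 in DESeq2, with 617.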

How the data were processed

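RNA from heart ventricles at embryonic day 13.5 was measured in 6 control samples, with 6 LIN9 KO samples for comparison. The deposited values are raw counts per Ensembl gene: the authors mapped reads with TopHat2 (2.1.0) and Bowtie2 to mm10, brought the samples of each experiment down to the smallest number of mappable reads, and counted with summarizeOverlaps. The authors' overlap mode and strand setting are not stated. The authors' deposited log2 fold changes were not used, and 0 columns of counts were left unused. The 4 ChIP samples were left out.

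From the counts, both tables were joined on Ensembl identifiers (48709 genes), and gene positions, exon lengths and GC content came from GENCODE M21 on mm10. Genes with a mean count above 1 were tested with edgeR (4.0.16, R 4.3.3) by the quasi-likelihood test with robust estimates, TMM factors and Benjamini-Hochberg adjustment, called at 0.05. The control sets were fitted on 6 samples, and the LIN9 KO contrast and the interaction on 12. DESeq2 (1.42.0), other scalings and filters, thinning, a replicate block and leaving out each sample were alternatives. Length-scaled levels used the union of exons, and correlations used log2 of the level plus 1. Tables were summarised with Python 3.11.15 and pandas 2.3.3.

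Genes were named by a rule: Lin9, Sav1 and Nkx2-5, the 20 most abundant nuclear protein-coding genes, the 3 most abundant members and the members at 0 of each list, the genes of the isoform pairs, the 8 largest protein-coding and 3 largest other changes each way among called genes of at least 5 CPM whose sets do not overlap, and the 6 genes of widest spread at 20 CPM or more in each set. The 23 marker and 14 functional lists were written by hand, and the samples and lists were chosen with earlier results of these data known. The grouping of the 20 most abundant genes by role was made after their values were seen. Promoters are from RefSeq.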

Additional observations from a re-analysis of the deposited data

Results flagged for a closer look

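The summed length-scaled level of the macrophage list was 197 in replicate 2 of experiment 2, against 172 to 181 in the other 5 controls. Dixon's ratio barely passed its limit for 6 values. In CPM, the list summed to 149 in that sample and to 132 to 142 in the others, and on that scale the ratio lay below the limit. This was 1 of 43 sums and shares of counts examined over the 6 controls, and chance flags about 1 in 20 groups.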

How the results depend on the processing

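Control set difference (110 genes): 109 genes were called with RLE factors, 109 on library totals, 157 with DESeq2, 94 after thinning and 107 without haemoglobin and mitochondrial DNA genes. With no filter on counts it was 677, and with a mean count above 10 it was 42. The leave-one-out range was 16 to 1139, and the 12-library fit called 2. Chosen after seeing the data, 3 alternatives gave 1515 without the 2 libraries that stood apart (replicate 2 of experiment 1 and replicate 1 of experiment 2), 108 without genes mostly under other genes, and 260 with a GC offset. The replicate block gave 67 genes. Replicate numbers do not pair the samples: same-numbered controls correlated at -0.172, -0.0943 and 0.00754, and same-numbered LIN9 KO samples at -0.127, 0.0356 and -0.179.

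LIN9 KO difference (271 genes): library totals gave 153, no filter 567 and thinning 144, with a leave-one-out range of 3 to 722. RLE factors gave 201 genes, 45.3% of them higher against 32.5%, DESeq2 373 (45.3% higher), and library totals had 56.9% higher. The replicate block gave 275. The interaction called 0 genes in edgeR or DESeq2 under all settings run.

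Of the 37 lists, 16 did not overlap in CPM, 15 on library totals, 15 without haemoglobin and mitochondrial DNA genes and 7 on the length-scaled level, with a leave-one-out range of 16 to 24. The longest transcript kept 15 of the 20 most abundant genes, and leaving out haemoglobin and mitochondrial DNA genes kept all 15 that are not haemoglobin genes, the most it can keep, and 9 isoform pairs kept their order in all 6 samples. The excess of detected genes in experiment 1, 2114, reversed to -217 after thinning. Of the values of single named genes under alternatives, 310 kept their call and direction and 84 lost the call in the same direction. Of list and pair ratios, 324 changed by no more than the SD between samples and 17 by more. Depth limits genes near 1 CPM in experiment 2, where 3 counts are 1.02 to 1.03 CPM.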
